A study of Mus musculus with 8 samples.

Results

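The 44 genes examined here encode factors that process 18S ribosomal RNA and assemble the 40S ribosomal subunit. They were chosen by symbol from a table of 52778 rows, and all 44 had 1 row on a primary chromosome. All 44 also passed the filter on low values (a mean of at least 1 TPM over the libraries), among 15541 rows that did. TPM is a length-corrected level whose sum is fixed in each library, so a value is a share of the measured RNA. RNA came from the ventricular heart of mouse embryos at embryonic day 11.5. The 4 conditional knockout (cKO) libraries are labelled as a cardiomyocyte-specific knockout of Rps19bp1, made from Rps19bp1 fl/fl animals carrying Xmlc2-Cre +/−. The 4 control libraries are labelled only as control, and whether those embryos carried floxed alleles or Cre is not stated. The genotype field reads C57BL/6 WT in all 8 samples, knockouts included, and all carry the same batch label. Cre acts in cardiomyocytes, so the other cells of the ventricle keep the gene. In such bulk tissue, fewer cells of a type and less RNA per cell cannot be told apart. Whether embryos were pooled is not stated, so p-values measure the spread between these libraries.

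The small subunit starts as a large nucleolar particle, the small-subunit processome, which forms on the nascent precursor ribosomal RNA. The UtpA and UtpB complexes bind the 5′ external spacer first, the U3 small nucleolar ribonucleoprotein base-pairs with the precursor, and the Mpp10 complex and further enzymes and scaffold proteins join before cleavage. Late factors then accompany the pre-40S particle to the cytoplasm, where the last cleavage yields mature 18S RNA. The product of Rps19bp1 is a nucleolar partner of the 40S protein Rps19. The comparison of cKO with control asks whether the RNAs of the processome differ when Rps19bp1 is deleted in cardiomyocytes.

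The knockout was visible in every library. Rps19bp1 (chr15:80260614-80264306, minus strand, GRCm38) stood at 15.2, 11.8, 13.7 and 19.2 TPM in cKO libraries 1 to 4 and at 40.9, 44.2, 34.7 and 40.05 TPM in control libraries 1 to 4. Cardiomyocyte RNA dominated the tissue markers, since 14 cardiomyocyte genes summed to between 50280 and 55140 TPM, while 10 neuronal genes summed to between 5.485 and 14.15 TPM. The median of the neuronal genes lay between 0.0585 and 0.248 TPM. The neuronal genes were examined because the extraction text names cortical neurons. Mitochondrial rows took 13.2% to 16.2% of TPM in cKO and 11.4% to 12.2% in control, and a larger share there lowers every other value. Between 15336 and 15752 rows reached 1 TPM per library, and the read depth behind each value is unknown.

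Across the 44 factors, RNA levels in cKO lay close to control. Utp6, a repeat protein of the UtpB complex, was called lower, and Rrp36, an early 18S maturation factor, was called higher. Both calls lay near the threshold, and they were lost under 11 (Utp6) and 10 (Rrp36) of 17 alternative settings. The other 42 did not pass the test. The 2 called members made up 4.55% of the factors, beside 6.4% called over all 15541 rows (limma, Benjamini-Hochberg adjusted p under 0.05), so members were not called more often than rows in general. Over all rows 336 were called higher, which is 2.16%, and 658 lower, which is 4.23%. That split depended on scaling and was 383 against 380 after quantile normalization, 383 against 419 after median-ratio scaling and 388 against 396 after rescaling without mitochondrial and globin rows. Among the 42 factors without a call, the 95% confidence intervals of the log2 change (cKO minus control, on the log2(TPM + 1) scale) lay within -0.34 and 0.29, which is 78.8% to 122% of control on that scale.

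Small shifts pointed mostly downward. The fitted change was below 0 for 37 of 44 factors (84.1%), beside 55.8% of all tested rows, and the median change was -0.07 beside -0.02 for all rows. An unadjusted limma p under 0.05 was reached by 8 factors (18.2%, beside 23.7% of all rows). Groups did not overlap for 7 factors (15.9%, beside 15.6% of all rows), 2 of them higher (4.55%, beside 5.33%) and 5 lower (11.4%, beside 10.3%). The direction leaned on control library 1, which held the highest value of 31 of the 44 factors. Without that library the median was -0.04 and 32 factors were below 0. With each library left out in turn, the median of the factors ran from -0.10 to -0.04. The lowest value of 21 factors was held by cKO library 3, and the median without it was -0.06. That library also had the highest mitochondrial share, 16.2%, and the part of this share in its low values was not tested beyond the rescaling given next. The 3 other scalings moved all rows, whose median became -0.00 after quantile normalization, 0.00 after median-ratio scaling and 0.01 after rescaling. The median of the factors then lay between -0.05 and -0.04, with 29 to 32 factors below 0. The difference between the median of the factors and that of all rows was -0.05 as reported, -0.04 after quantile normalization and -0.05 under the other 2. It also depended on the filter, at -0.04 beside rows with a mean of at least 5 TPM and -0.07 with no filter on low values. The summed TPM of the 44 factors overlapped between groups, at 1666 to 1797 in cKO and 1787 to 1987 in control.

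**Figure D1:**
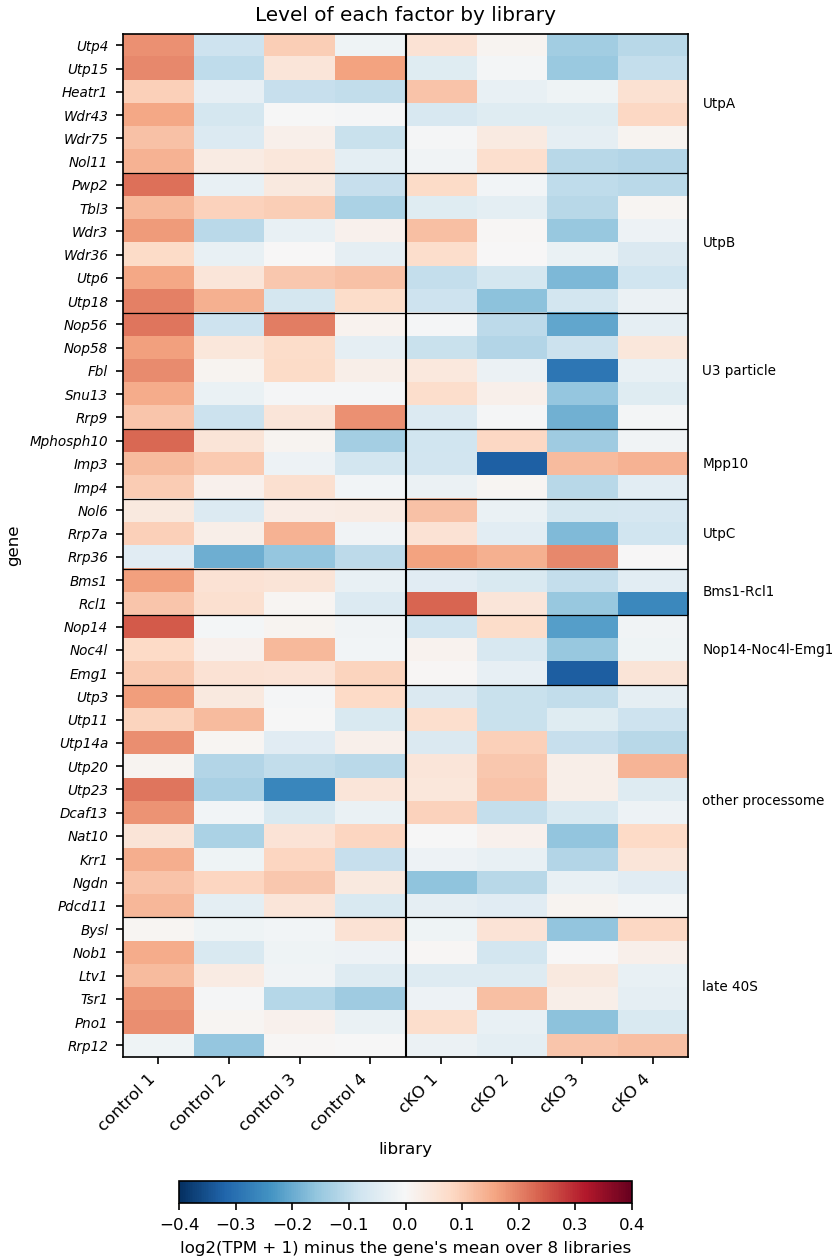
Level of each of the 44 factors (rows, grouped by subcomplex) in each of the 8 libraries (columns), as log2(TPM + 1) minus the gene's mean over all libraries. Red is above and blue below that mean; control library 1 is the highest for 31 factors and cKO library 3 the lowest for 21.

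**Figure D2:**
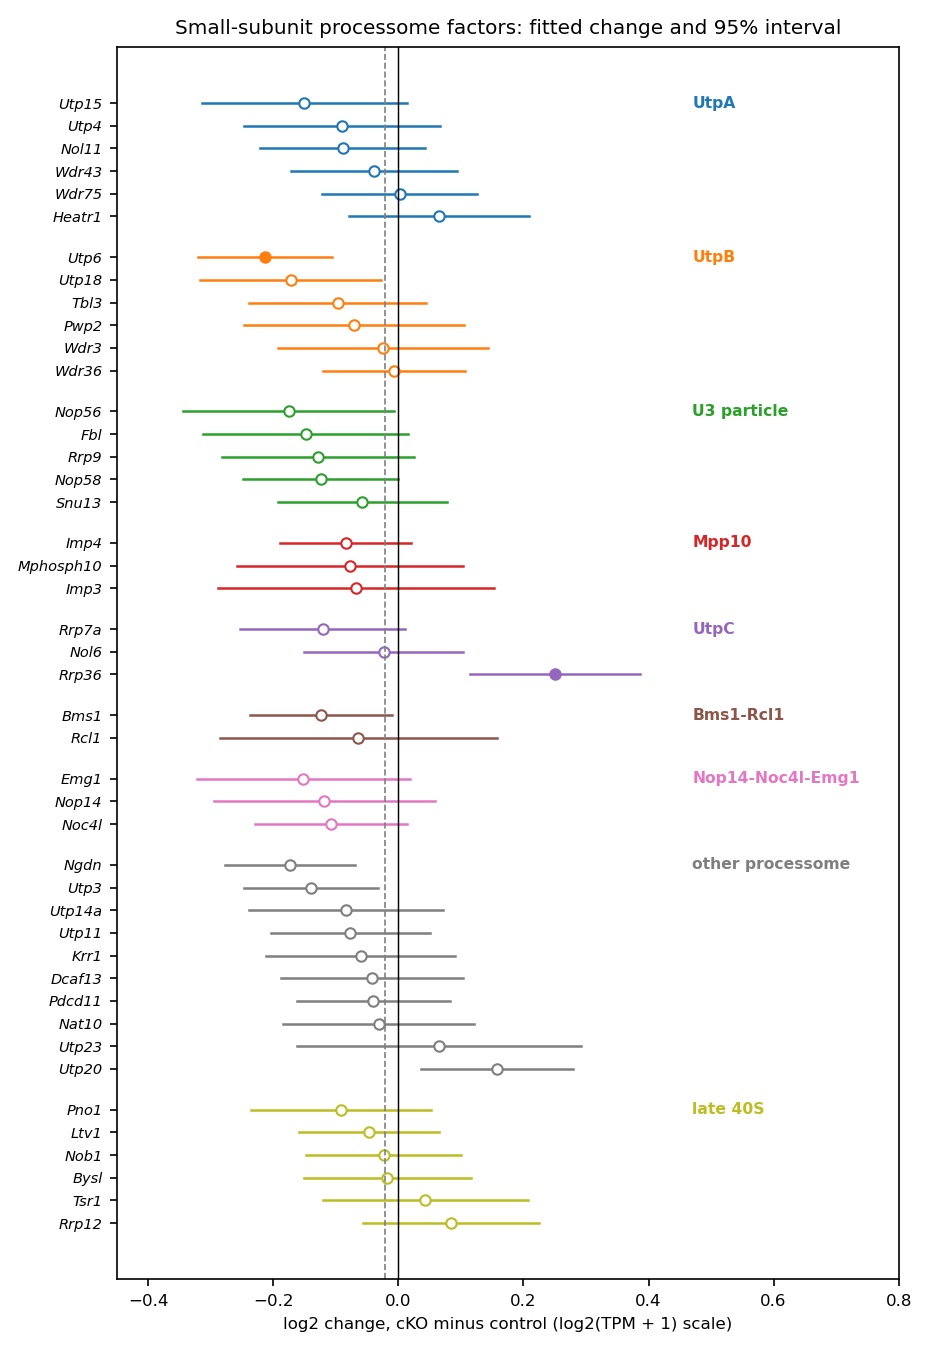
Fitted log2 change (cKO minus control, x axis) of each factor (y axis), with its 95% confidence interval, grouped by subcomplex. Filled points have a limma adjusted p under 0.05 (Utp6 and Rrp36), open points do not, the solid line marks 0 and the dashed line the median of all tested rows at -0.02.

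The factors are spread over 18 chromosomes, and the start and end of all 44 rows were identical to those of RefSeq (GRCm38.p6). RefSeq promoter windows were found for 35 of them, and the 250 bases before the start site were searched on both strands. The window ends just before the start of the gene's row for 26 of the 35 and just before another start site for 9. That site lies 385 bases from the row's start for Bms1, whose window holds the letters CCGGAAG, and 1684 bases for Nat10. The letters CCGGAAG, a site of ETS factors, were counted only in this exact form. Other forms were not searched, so a window without these letters may hold another ETS site. They stood in 12 of 35 factor promoters (34.3%), in 13.5% of 10908 promoters of tested genes and in 7.07% of 27023 promoters of genes in the table. The E-box CACGTG, the site of Myc and Max, stood in 4 of 35 (11.4%), beside 8.5% of tested genes, and these were Nol11, Utp18, Imp4 and Rrp7a. The NRF1 site was likewise counted only in an exact form, which stood in 0 of 35 (1.59% of tested genes). Its other forms were not searched, so these windows may hold another NRF1 site. TATAAA stood in 3 of 35 (8.57%, beside 6.38%). The median GC content was 57.6% in factor promoters and 60.0% in those of tested genes. The windows of the paralogs Nop56 and Nop58 held neither the letters CCGGAAG nor an E-box. The window of Rrp36, a called factor, is printed with 3 chosen after their values were seen. These are Utp18, which holds both CCGGAAG and an E-box, Utp3, which holds CCGGAAG more than once, and Ngdn, which holds neither. Each window runs 5′ to 3′ on the gene's strand, ending at the base before the start site. Capitals mark CCGGAAG and E-boxes on either strand, and no 2 of these overlap.
Rrp36 (chr17:46674327-46674576, minus strand, GRCm38.p6): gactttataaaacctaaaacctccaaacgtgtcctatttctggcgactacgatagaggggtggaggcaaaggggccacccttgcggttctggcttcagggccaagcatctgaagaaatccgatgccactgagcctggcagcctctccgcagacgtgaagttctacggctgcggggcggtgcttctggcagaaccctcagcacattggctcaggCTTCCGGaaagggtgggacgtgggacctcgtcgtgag
Utp18 (chr11:93885767-93886016, minus strand, GRCm38.p6): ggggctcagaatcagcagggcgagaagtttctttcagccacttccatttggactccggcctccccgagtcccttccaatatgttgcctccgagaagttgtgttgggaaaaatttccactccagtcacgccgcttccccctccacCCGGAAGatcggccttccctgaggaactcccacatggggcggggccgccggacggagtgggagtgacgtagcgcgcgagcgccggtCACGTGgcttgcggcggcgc
Utp3 (chr5:88554212-88554461, plus strand, GRCm38.p6): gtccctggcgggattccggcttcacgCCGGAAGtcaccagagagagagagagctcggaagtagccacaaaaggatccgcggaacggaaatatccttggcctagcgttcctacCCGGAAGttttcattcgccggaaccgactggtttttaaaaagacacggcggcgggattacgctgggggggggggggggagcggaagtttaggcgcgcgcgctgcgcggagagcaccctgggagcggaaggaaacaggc
Ngdn (chr14:55015204-55015453, plus strand, GRCm38.p6): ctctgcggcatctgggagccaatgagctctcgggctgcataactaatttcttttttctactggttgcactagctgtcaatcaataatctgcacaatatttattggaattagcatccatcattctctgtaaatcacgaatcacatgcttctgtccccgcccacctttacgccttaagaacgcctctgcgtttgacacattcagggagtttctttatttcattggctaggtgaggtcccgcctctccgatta
The letters CCGGAAG lie on the opposite strand in Rrp36, and on the gene's strand in Utp18 and Utp3.

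Control levels of the factors ran from 6.92 TPM for Utp23 to 131 TPM for Snu13, with a median of 31.8 TPM. Snu13, Nop56, Fbl and Nop58, the 4 core proteins of box C/D ribonucleoproteins, were the only factors with control means above 100 TPM, and the control range of each overlapped that of the next in order. Emg1 followed at 89.6 TPM and Imp3 at 86.8 TPM, while 10 factors had control means under 20 TPM. Of the 43 neighbouring pairs in the order of control levels, 5 had control ranges that did not overlap, so most neighbours could not be placed in order. Replicates were close, with a median coefficient of variation over the factors of 6.54% in control and 5.61% in cKO.

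**Figure D3:**
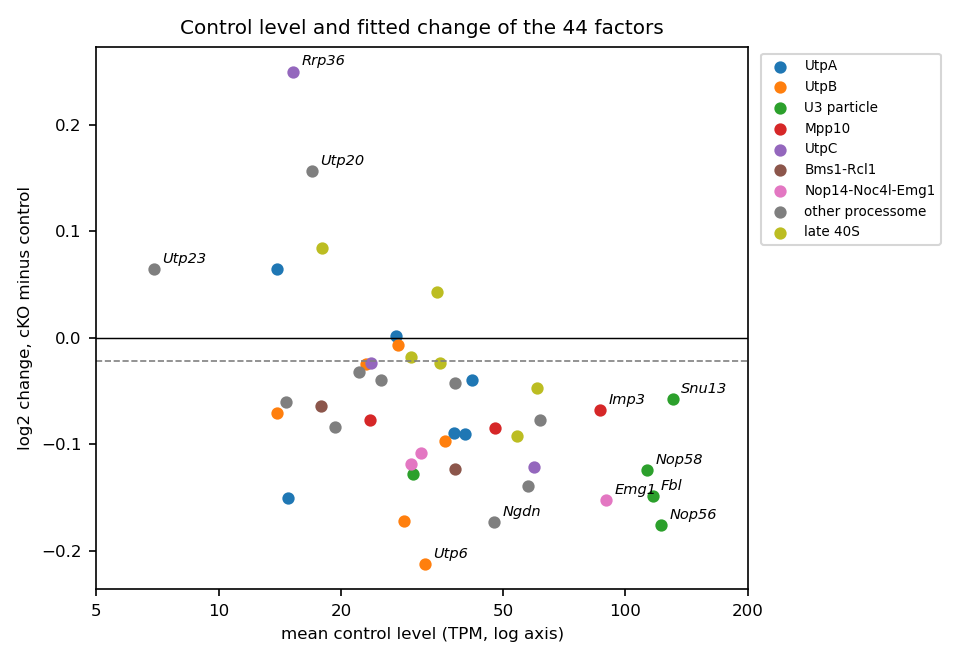
Mean control level (TPM, log x axis) against the fitted log2 change (cKO minus control, y axis) of the 44 factors, coloured by subcomplex. The 4 box C/D proteins stand apart at the right, Rrp36 and Utp20 at the top and Utp6 at the bottom, and the dashed line marks the median of all tested rows at -0.02.

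UtpA, the complex that binds the precursor first and is tied to ribosomal DNA transcription, differed little. Its 6 subunits had changes from -0.15 to 0.06 with a median of -0.06. By limma 0 were called (beside 6.4% of all rows) and 0 had an unadjusted p under 0.05 (beside 23.7%). Without control library 1 the median was -0.02. Utp15, a WD-repeat subunit, had the largest change. It stood at 13.5, 13.9, 12.5 and 13.0 TPM in cKO libraries 1 to 4 and at 16.1, 13.0, 14.5 and 15.7 TPM in control libraries 1 to 4. The groups overlapped because control library 2 lay among the cKO values, and the log2 change was -0.15 (SE 0.0737, limma adjusted p = 0.25). The scaffold proteins Wdr43 (42.04 ± 2.90 TPM in control and 40.8 ± 2.02 in cKO, SD, n = 4) and Wdr75 (27.3 ± 1.82 and 27.3 ± 0.591) had nearly equal group means. Heatr1, the long HEAT-repeat subunit, lay at 13.2 to 15.3 TPM in control and 13.9 to 15.5 TPM in cKO. Utp4 had a control mean of 40.2 TPM and Nol11, which is linked to polymerase I transcription in vertebrates, one of 37.99 TPM, and both had log2 changes of -0.09. Rows of small nucleolar RNAs, among them Snord53 and Snord92, lie within Wdr43 on its strand and reached at most 6.71 TPM.

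UtpB, a scaffold of WD-repeat proteins around the precursor's 5′ spacer, held the factor called lower. All 6 subunits had changes below 0 (beside 55.8% of all rows), from -0.21 to -0.01 with a median of -0.08. By limma 1 was called (16.7%, beside 6.4%), and 2 had an unadjusted p under 0.05 (33.3%, beside 23.7%). Under each of the 3 other scalings Wdr3 and Wdr36 had changes slightly above 0, at most 0.03. Utp6 (chr11:79933956-79962387, minus strand) stood at 27.8, 28.3, 26.2 and 28.1 TPM in cKO libraries 1 to 4 and at 33.3, 30.8, 32.2 and 32.4 TPM in control libraries 1 to 4. All cKO values lay below all control values, with means of 27.6 ± 0.957 and 32.2 ± 1.02 TPM (SD, n = 4). The log2 change was -0.21 (SE 0.0482, limma adjusted p = 0.0326). The exact two-sided permutation p was 0.0286, the smallest that 4 against 4 libraries allow. Every factor whose groups did not overlap had this same p, called or not, so it adds nothing to the lack of overlap. No other row overlaps Utp6 in the table. The call was near the threshold and was lost under 11 of 17 alternative settings, with limma adjusted p from 0.0261 to 0.0905 over the 17. Among the 11 were each library left out except cKO library 4. It was also lost after quantile normalization (limma adjusted p = 0.0511) and after rescaling without mitochondrial and globin rows (0.0512). After median-ratio scaling the call was kept (0.0459). The change stayed between -0.23 and -0.18.

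Utp18, the subunit that recruits the RNA exosome's helicase, was the next of UtpB, at 25.3, 23.8, 25.4 and 26.4 TPM in cKO and 30.98, 29.7, 25.5 and 28.3 TPM in control. Control library 3 lay within the cKO range, and the log2 change of -0.17 was not past the threshold (limma adjusted p = 0.145). Tbl3 had a control mean of 35.9 TPM, Pwp2 one of 13.9 TPM, Wdr3 one of 22.97 TPM and Wdr36 one of 27.7 TPM, and their log2 changes were -0.10, -0.07, -0.02 and -0.01. The median of UtpB was -0.04 without control library 1 and -0.13 without control library 4.

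The U3 particle guides the early cleavages by base-pairing with the precursor, and all 5 of its proteins had changes below 0, with a median of -0.13 and a range of -0.18 to -0.06, and 0 were called by limma (1 at an unadjusted p under 0.05, Nop56). Nop56, a scaffold of all box C/D ribonucleoproteins, stood at 114.5, 107, 99.2 and 112 TPM in cKO libraries 1 to 4 and at 133, 108, 132 and 116 TPM in control libraries 1 to 4. The 2 highest values were control libraries 1 and 3, while control library 2 lay inside the cKO range, and the log2 change was -0.18 (SE 0.0756, limma adjusted p = 0.193). Its paralog Nop58 had means of 104 ± 5.36 TPM in cKO and 113 ± 6.62 TPM in control (SD, n = 4), with 1 cKO library, library 4 at 112 TPM, inside the control range. Fbl, the 2′-O-methyltransferase of the particle, stood at 90.45 TPM in cKO library 3 beside 108 to 114 TPM in the other cKO libraries. Its log2 change of -0.15 was -0.08 without that library. The median of the 5 proteins was -0.09 without cKO library 3 and -0.17 without control library 2. Snu13, which binds the kink-turn of box C/D RNAs and of U4 RNA, had a log2 change of -0.06, and Rrp9, the protein particular to U3, one of -0.13. Nop56 and Nop58 contain rows of small nucleolar RNAs on their own strand, among them Snord57 and Snord110 in Nop56 and Snord70 and Snord11 in Nop58, each of these 4 with a mean under 5 TPM. Idh3b, at a mean of 286 TPM, overlaps the 3′ end of Nop56 by 5 bases on the opposite strand.

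The Mpp10 complex joins the U3 particle to the precursor. Of its 3 subunits 0 were called by limma (beside 6.4% of all rows) and 0 had an unadjusted p under 0.05 (beside 23.7%). Imp4, which with Imp3 promotes pairing of U3 with the precursor, stood at 45.5, 46.5, 42.8 and 44.9 TPM in cKO and 49.7, 46.8, 48.4 and 45.9 TPM in control. Its groups overlapped through control library 4, and the log2 change was -0.08 (SE 0.0471, limma adjusted p = 0.313). Imp3 was uneven in cKO, with library 2 at 67.3 TPM beside 80.2 to 93.4 TPM in the others, and its log2 change of -0.07 became 0.03 without that library. Mphosph10, the scaffold of the complex, had a control mean of 23.6 TPM and a log2 change of -0.08, which was -0.01 without control library 1. The median of the 3 was -0.08, or -0.04 without that library.

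UtpC, with Nol6, Rrp7a and Rrp36 counted here, held the factor called higher. Rrp36 (chr17:46666323-46674326, minus strand) stood at 18.7, 18.5, 19.2 and 16.7 TPM in cKO libraries 1 to 4 and at 16.1, 14.5, 14.9 and 15.4 TPM in control libraries 1 to 4. Every cKO value lay above every control value, cKO library 4 by the least, with means of 18.3 ± 1.10 and 15.2 ± 0.711 TPM (SD, n = 4). The log2 change was 0.25 (SE 0.0613, limma adjusted p = 0.0405), and the exact permutation p of 0.0286 follows from the lack of overlap. The call was lost under 10 of 17 alternatives, among them each library left out except cKO library 4, with adjusted p from 0.0268 to 0.104 over the 17. The change stayed between 0.20 and 0.29. Its partners did not pass the test. Rrp7a had a log2 change of -0.12 (54.7 ± 3.75 TPM in cKO and 59.5 ± 2.89 in control, SD, n = 4, limma adjusted p = 0.25), and Serhl, expressed at a mean of 34.1 TPM, overlaps it by 831 bases on the opposite strand. Nol6, the largest of the 3, had one of -0.02.

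**Figure D4:**
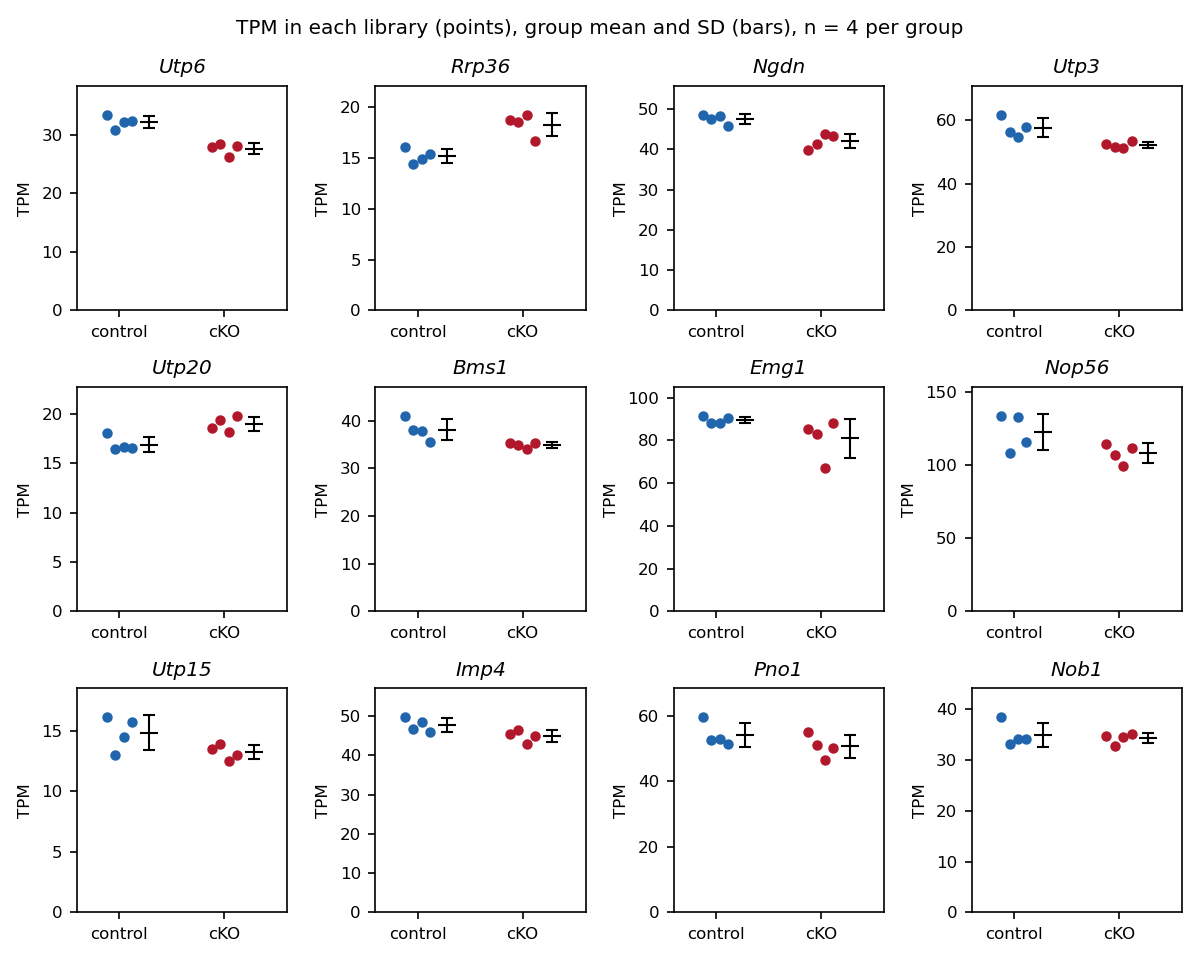
TPM (y axis, from 0) of 12 factors in each control (blue) and cKO (red) library, with the group mean and SD beside the points, n = 4 per group. Utp6, Ngdn, Utp3, Bms1 and Emg1 lie lower in every cKO library, Rrp36 and Utp20 higher in every cKO library, and the groups overlap for Nop56, Utp15, Imp4, Pno1 and Nob1.

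Bms1, the GTPase of the processome, and its cyclase-like partner Rcl1 were examined as a pair. Bms1 stood at 35.2, 34.8, 33.9 and 35.3 TPM in cKO and 40.9, 37.9, 37.8 and 35.6 TPM in control, so the groups did not overlap, by a margin set by control library 4. The log2 change of -0.12 was not past the threshold (SE 0.0511, limma adjusted p = 0.179). Rcl1 varied more in cKO, from 14.4 TPM in library 4 to 20.6 TPM in library 1, than in control, from 16.7 to 18.9 TPM. Its log2 change of -0.06 became 0.01 without cKO library 4 and -0.15 without cKO library 1.

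Nop14, Noc4l and the 18S RNA methyltransferase Emg1 act together. By limma 0 were called (beside 6.4% of all rows) and 0 had an unadjusted p under 0.05 (beside 23.7%). Emg1 stood at 85.2, 82.99, 67.3 and 88.1 TPM in cKO and 91.3, 88.4, 88.2 and 90.4 TPM in control. The groups did not overlap, by a margin as narrow as 88.14 TPM in cKO library 4 against 88.2 TPM in control library 3, and cKO library 3 stood far below the rest. The log2 change of -0.15 (SE 0.0766, limma adjusted p = 0.261) was -0.07 without it. Lpcat3, at a mean of 30.3 TPM, overlaps Emg1 by 347 bases on the opposite strand. Nop14 had a log2 change of -0.12 and Noc4l one of -0.11, with control means of 29.7 and 31.4 TPM. The change of Nop14 was -0.06 without either control library 1 or cKO library 3.

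Of the other 10 processome factors 0 were called by limma (beside 6.4% of all rows). Groups did not overlap for 3 of them (30.0%, beside 15.6% of all rows), and the same 3 had an unadjusted p under 0.05 (beside 23.7% of all rows). Ngdn, a protein with the domain of the Sas10 family, came nearest. It stood at 39.8, 41.3, 43.7 and 43.3 TPM in cKO and 48.4, 47.4, 48.2 and 45.9 TPM in control, with all cKO values below all control values. The log2 change was -0.17 (SE 0.0471, limma adjusted p = 0.0575), and it was called under 1 of 17 alternatives, a minimum mean of 5 TPM (adjusted p = 0.0497). Utp3, the Sas10 protein itself, ran in the same direction at 51.1 to 53.4 TPM in cKO and 54.5 to 61.5 TPM in control (log2 change -0.14, limma adjusted p = 0.118).

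Utp20, a very large scaffold protein, ran the other way and was the second factor with all cKO values above control. It stood at 18.5, 19.3, 18.2 and 19.8 TPM in cKO and 18.03, 16.4, 16.6 and 16.5 TPM in control. Control library 1 came close to cKO library 3, and the log2 change was 0.16 (SE 0.0546, limma adjusted p = 0.119). Nat10, which acetylates cytidines of 18S RNA, Pdcd11, which acts in the maturation of both subunits, Dcaf13, a WD-repeat protein, and Krr1, a KH-domain protein, had changes from -0.06 to -0.03. Utp11, at a control mean of 61.8 TPM, and Utp14a, the partner of the helicase Dhx37, each had one of -0.08. Utp23, a protein with an inactive nuclease domain, was the least abundant factor, at 5.70 to 8.32 TPM in control and 6.74 to 7.69 TPM in cKO, and the fitted change of 0.06 had the widest standard error of the 44 (0.102). Dcaf13 has a further row on a patch scaffold, listed at 0 in all 8 libraries.

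The late factors, which ride on the pre-40S particle, had a median change of -0.02, equal to that of all rows. Of these 6, 0 were called by limma (beside 6.4% of all rows) and 0 had an unadjusted p under 0.05 (beside 23.7%). Their median lay 0.02 above that of all rows after quantile normalization and within 0.01 of it under the other 2 scalings. Without control library 1 or cKO library 3 it was 0.00. Pno1, the partner of the nuclease Nob1, had the largest negative change. It stood at 54.9, 51.1, 46.5 and 50.02 TPM in cKO and 59.5, 52.4, 52.9 and 51.3 TPM in control, the groups overlapped, and the log2 change was -0.09 (SE 0.0646, limma adjusted p = 0.432), or -0.05 without either control library 1 or cKO library 3. Nob1, which makes the last cut of 18S RNA, lay at 32.9 to 35.1 TPM in cKO and 33.1 to 38.4 TPM in control. Ltv1 (58.5 and 60.5 TPM) and Bysl (29.4 and 29.7 TPM), which sit together on the pre-40S head, also had group means close to each other. Tsr1, a GTPase-like assembly factor, and Rrp12, a HEAT-repeat export factor, were above 0, at 0.04 and 0.08. Ccnd3, a cyclin gene, overlaps the 3′ end of Bysl by 359 bases on the opposite strand at a mean of 487 TPM, and Srr overlaps Tsr1 by 5314 bases.

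Set side by side, the medians ran from -0.13 for the U3 particle, -0.12 for Nop14, Noc4l and Emg1, -0.09 for Bms1 and Rcl1, -0.08 for UtpB and Mpp10, -0.06 for UtpA and -0.05 for the other processome factors to -0.02 for UtpC and for the late factors. These differences between subcomplexes were not tested, and the range of single members within a group reached from -0.17 to 0.16 among the other processome factors. Single libraries also moved the medians by more than 1.5 times. That of Nop14, Noc4l and Emg1 was -0.07 without cKO library 3, and that of Bms1 and Rcl1 was -0.06 without cKO library 4. Without control library 1, the median was -0.04 for Mpp10 and for UtpB and -0.02 for UtpA and for the other processome factors. Without control library 4 it was -0.13 for UtpB and -0.08 for the other processome factors. That of UtpC was -0.07 without cKO library 1, -0.05 without control library 2, -0.01 without control library 1 and -0.00 without cKO library 3 or 4. That of the late factors was -0.04 without cKO library 4 or control library 2. The order of the subcomplexes changed with the library left out, and the lowest median belonged to Bms1 and Rcl1 (-0.14) without cKO library 1 and to Nop14, Noc4l and Emg1 (-0.16) without cKO library 2.

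**Figure D5:**
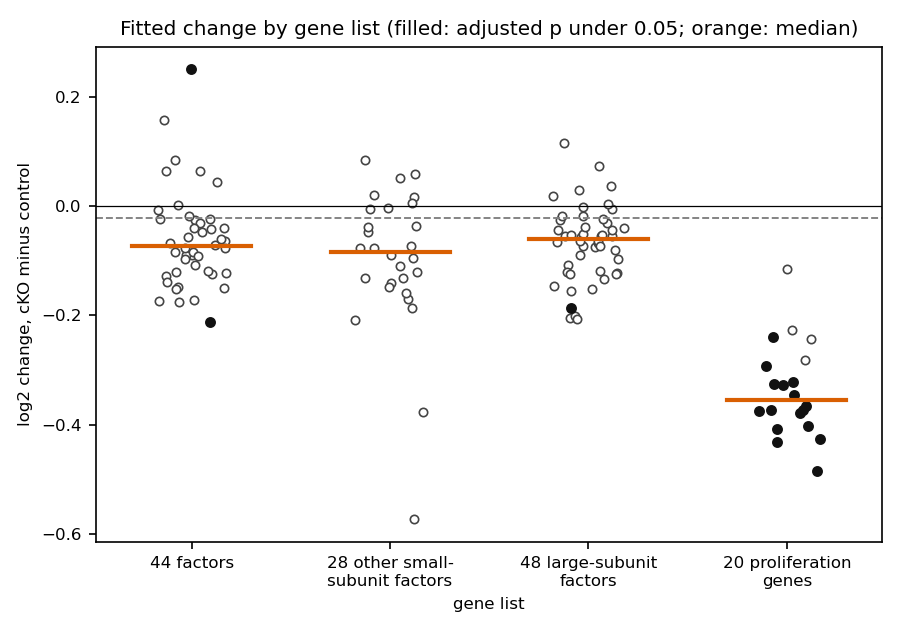
Fitted log2 change (cKO minus control, y axis) of the 44 factors, 28 other small-subunit factors, 48 large-subunit factors and 20 proliferation genes (x axis). Filled points have a limma adjusted p under 0.05, orange bars are medians and the dashed line is the median of all tested rows at -0.02; the first 3 lists have medians of -0.07, -0.08 and -0.06 and the proliferation genes -0.36.

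Other genes of ribosome assembly, and the further lists after them, are given beside all rows. Of all rows 6.4% were called, 23.7% had an unadjusted p under 0.05 and 55.8% had a change below 0. Of 28 further small-subunit factors 0 were called by limma (4 at an unadjusted p under 0.05), with a median of -0.08. Of 48 large-subunit factors 1 was called (2.08%), with a median of -0.06, and that was Noc2l, a nucleolar large-subunit factor. Noc2l fell by 0.19 on the log2 scale, with 66.2 ± 2.09 TPM in cKO against 75.4 ± 2.87 TPM in control (limma adjusted p = 0.0406), and was not called after any of the 3 other scalings or without any library but cKO library 4 or control library 4. Of 20 proliferation genes all 20 had changes below 0, with a median of -0.36, and 16 were called lower (19 at an unadjusted p under 0.05). Only 8 were called without control library 1 or without control library 3, and 10 without control library 4. Among them Mki67, the common marker of cycling cells, had a log2 change of -0.40 and Rrm2, a ribonucleotide reductase subunit, one of -0.49. Markers of other cell types were also examined. Of 8 epicardial genes 4 were called higher (Wt1, Tbx18, Tcf21 and Upk3b). All 8 had changes above 0, with a median of 0.35, and 7 had an unadjusted p under 0.05. The summed TPM of the 8 was 440.6 to 543.2 in cKO and 375.3 to 437.7 in control. Of 8 mesenchymal genes 4 were called higher (Col1a2, Col3a1, Dcn and Pdgfra). All 8 had changes above 0, with a median of 0.50, and all 8 had an unadjusted p under 0.05. Their sums were 794.8 to 999.0 TPM in cKO and 551.2 to 695.2 TPM in control. Of 9 endocardial and endothelial genes 0 were called (5 at an unadjusted p under 0.05), with sums of 796.7 to 901.9 and 745.5 to 793.6 TPM. Of 9 erythroid genes 0 were called (2 at an unadjusted p under 0.05), all 9 had changes below 0 with a median of -0.41, and the sums overlapped, at 1621 to 3493 TPM in cKO and 1790 to 6566 in control. Of 8 macrophage genes 7 were tested and 0 called (1 at an unadjusted p under 0.05), with overlapping sums over the 8 of 17.9 to 42.6 and 17.7 to 32.5 TPM. The part of these lists in the small shifts of the 44 factors was not tested. The 14 cardiomyocyte genes had overlapping sums (50280 to 52780 TPM in cKO and 50660 to 55140 in control). Only Nkx2-5 was called, and it was lower, so 7.14% of the list was called beside 6.4% of all rows. Of the 14, 12 had changes below 0 and 2 above, with a median of -0.06, and 4 had an unadjusted p under 0.05.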

How the data were processed

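Ventricular RNA of 4 cKO and 4 control embryo samples was compared. Values are TPM as deposited, and each column sums to 1000000 or 999999. Per the submitters' processing notes the tools included Trim Galore 0.6.7, HISAT2 2.2.1, StringTie 2.2.1 and featureCounts on GRCm38. Their roles, the annotation and the use of strand are not given in the sources used here, and reads of overlapping genes may therefore be shared. The labels contradict each other on extraction and on library type (ribosomal RNA depletion or a stranded mRNA kit). TPM keeps no depth, so precision is that between libraries.

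The test was limma 3.58.1 in R 4.3.3, two-sided, on log2(TPM + 1), with the trend option of eBayes. It covered the 15541 rows whose mean reached 1 TPM, with Benjamini-Hochberg adjustment over all of them. The call threshold was 0.05. A fold change on this scale understates the change of low genes. Single members were also tested by exact permutation over 70 assignments. Lists are described by counts and medians. Values in every library are given for called members and, in each subcomplex, for the members with the largest change and the smallest p. Members outside that rule (Utp18, Utp20, Utp3 and others given beside them) were chosen after their values were seen. The members, subcomplexes and lists were chosen with earlier results of these data known. The procedure was tested on simulated data with no planted change or with planted changes larger than that of any factor. Recovery of changes as small as those of the factors was therefore not tested. Alternatives were other pseudocounts, filters and scalings, no trend, a replicate block and each library left out. Figures were drawn with matplotlib 3.10.9.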

Additional observations from a re-analysis of the deposited data

Results flagged for a closer look

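Of 88 groups of 4 libraries (44 factors in 2 groups), 7 held a library far from the other 3 by Dixon's test, and chance flags about 1 group in 20. In control library 1, Snu13 stood at 142 TPM (126 to 128 in the other control libraries), Nop14 at 33.8 TPM (28.1 to 28.6) and Utp20 at 18.03 TPM (16.4 to 16.6), each above the rest. In control library 2, Nol6 at 22.5 TPM (23.9 to 24.1 in the others) and Rrp12 at 16.4 TPM (18.2 to 18.5) lay below. Tbl3 was low in control library 4, at 31.6 TPM (37.0 to 38.0 in the others). Wdr43 was high in cKO library 4, at 43.9 TPM (39.5 to 40.01 in the others).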

How the results depend on the processing

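All 17 alternatives kept the change of Rps19bp1 past the threshold, between -1.49 and -1.18. The direction was kept under all of them for 31 of the 44 factors, and 3 factors (Utp6, Rrp36 and Ngdn) were called under any of them. The count of called factors, 2 as reported, was 1 with no filter on low values (Utp6). It was also 1 after quantile normalization and after rescaling without mitochondrial and globin rows (Rrp36 each time). The count was 0 without the mean-variance trend, 3 at a mean of at least 5 TPM, and 0 to 2 with single libraries left out. It was 0 without any 1 of 7 libraries (all but cKO replicate 4), where 2.51% to 4.55% of all rows were called. Over all rows the count, 994 as reported, was 347 with no filter, 609 without the trend and 390 to 938 with single libraries left out. With the replicate number as a block it was 420 over all rows and 0 of the factors. Same-numbered libraries did not deviate together (correlations of -0.0891 to 0.0674), and 2 of 4 cKO libraries correlated best with the control library of their own number, so the numbers were not taken as pairs. The median of the 44 factors ranged from -0.10 to -0.04. Depth is unknown. The smallest change called over all rows was 0.16 on the log2 scale, and the median standard error was 0.0798.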

Other observations

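Within the wider small-subunit list, the largest fitted changes belonged to Aatf, a nucleolar factor also known from transcription and apoptosis control, and to Utp14b, the retrogene copy of Utp14a. Aatf had means of 11.4 TPM in cKO and 16.3 TPM in control, with a log2 change of -0.57 (limma adjusted p = 0.244). Utp14b had means of 4.91 and 6.65 TPM, with a log2 change of -0.38 (limma adjusted p = 0.0575), beside -0.08 for Utp14a. Neither passed the threshold, and both were chosen after their values were seen.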
